A study of Mus musculus with 74 samples.

Results

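XY gonads of the inbred mouse strain 129S1/SvImJ (129S1) were followed through the day in which the testis pathway starts, at 6 stages set 4.8 h apart between E11.0 and E12.0 (embryonic days). The arrays were chosen by their labels alone, as all those marked with this strain and as XY. They were 19 of the 74 arrays of the series, with 5 at E11.0, 3 at each of E11.2, E11.4, E11.6 and E11.8, and 2 at E12.0. Each array held the RNA of the 2 gonads of 1 embryo, cut away from the mesonephroi, and the labels give no treatment and no engineered allele. The 18 arrays of 129S1 XX gonads and the 19 arrays of XY gonads of the strain C57Bl/6J (B6), taken at the same stages, are described only where 129S1 XY gonads differed from them, while all 74 arrays entered the estimate of the spread behind each test. The labels do not give the litter of an array, so the p-values measure the spread between embryos as sampled.

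The gonad forms as a primordium that can become either a testis or an ovary. In XY gonads the Y-linked gene Sry acts in precursors of the supporting cells and leads to expression of Sox9, after which these precursors become Sertoli cells, gather round the germ cells in cords and send signals to the other cells of the gonad. Signals of the ovarian pathway, among them Wnt4 and Rspo1, are held down in the testis. A whole gonad also holds germ cells, interstitial, endothelial and blood cells, so that fewer cells of a type and less RNA per cell cannot be told apart in any value below.

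All values are log2 signals on an Illumina bead array, on which the median of every one of the 19 arrays was 7.40. A probe near that value is close to the dim end of the scale, and a difference of 1 is a doubling. Pairs of arrays of the same stage correlated at 0.965 to 0.991 over all probes, the lowest value being at E11.6, and no pair of arrays was identical. The sex labels fitted 3 of 4 sex-linked genes, with Xist at 7.10 to 7.50 in the 129S1 XY arrays, against 9.75 to 10.78 in the 129S1 XX arrays. Eif2s3y lay at 8.64 to 9.94 in XY and 6.95 to 7.18 in XX, and Kdm5d at 7.57 to 8.39 in XY and 6.99 to 7.40 in XX, while the ranges of Uty overlapped. The first principal component of the 19 arrays (27.4% of the variance) put the arrays at E11.0 to E11.4 on the side opposite to those from E11.6 on. The component after it (23.4%) split arrays of the same stage, and at E12.0 replicate 1 stood at 13.3 and replicate 2 at -18.9. The summed signal of 20 genes of hypoxia and glycolysis was 111830 in replicate 2 of E11.6, above every other array of the 19, which lay between 49629 and 84532. The part of these splits in the results was not tested. Calls of named genes (chosen as given under the processing) that were lost without 1 array, and the main counts that changed, are therefore marked. Other genes quoted, such as Col4a1 and Col4a2, were not checked in this way. For these the absence of a mark does not mean that the call was kept.

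Over the day, E12.0 against E11.0, 691 probes rose (5.38% of the 12848 tested) and 876 fell (6.82%) at an adjusted p under 0.05 in limma. Counted as genes with the brightest probe for each, 540 of 9003 rose (6%) and 683 fell (7.59%). Without replicate 1 of E12.0 there were 381 rises and 293 falls, so that the order of these counts turned with 1 of the 2 arrays at E12.0. Larger changes were mostly rises, with 168 probes up at least 2-fold and 85 down at least 2-fold, and 28 up and 9 down at least 4-fold. On 1346 probes (10.5%) both E12.0 arrays lay above all 5 E11.0 arrays, and on 1962 (15.3%) both lay below. The median change over all genes tested was -0.01, which is the level against which the medians of gene groups are read below. Counts in gene groups are read against the 6% of genes that rose and the 7.59% that fell. The groups were chosen with earlier results of these data known, so their counts describe members and are not tests.

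Transcription factors of the supporting cell lineage moved in both directions. Of 12 measured, Sox9, Etv2, Sox8 and Sox13 rose and Gata6 fell, and the median change was -0.13. Sox9, which directs Sertoli cell differentiation, read 8.98 and 9.72 on the E12.0 arrays, against 7.88, 7.75, 7.87, 7.77 and 8.10 on the E11.0 arrays. The groups did not overlap, and the rise was 1.47 ± 0.21 (SE, adjusted p = 2.42e-07). Its stage means were 7.88, 8.36, 9.01, 9.77, 9.61 and 9.35 from E11.0 to E12.0, so that the mean at E11.6 was the highest of the 6, and the 3 arrays at E11.8 read 9.47 to 9.80. Etv2, an ETS factor best known for its role in forming blood vessels, followed a like course, with 9.58 and 9.83 at E12.0, against 7.21 to 7.72 at E11.0, a rise of 2.28 ± 0.34. It read 10.30, 10.11 and 10.47 at E11.8, above both E12.0 arrays. Sox8, a close relative of Sox9, rose later and less (0.91 ± 0.18, adjusted p = 0.00016), and its E12.0 arrays read 8.63 and 8.33, against 7.41 to 7.73 at E11.0. Sox13 rose by 0.65 ± 0.14.

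Among factors that already act in the gonad before its sex is set, Nr5a1, Gata4 and Wt1 did not pass the test and Gata6 fell. Nr5a1, which drives steroidogenic and somatic gonad genes, read 8.22 and 8.12 at E12.0, inside the 7.93 to 8.44 of E11.0 (-0.04 ± 0.20, adjusted p = 0.94). Gata4 differed by 0.27 ± 0.19 (adjusted p = 0.431) and Wt1 by -0.32 ± 0.16 (adjusted p = 0.204), and for both the groups overlapped. Gata6, a relative of Gata4, read 10.98 and 11.67 at E12.0, against 12.08 to 12.46 at E11.0, but its fall of 0.89 on the log2 scale was not called without replicate 1 of E12.0 (-0.55, adjusted p = 0.176). Sry itself lay between 7.02 and 7.39 on the 19 XY arrays, against 6.95 to 7.36 on the XX arrays, and was removed by the brightness filter together with Dmrt1 and Nr0b1. The ranges of XY and XX arrays over all stages thus overlapped for this probe.

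Of 17 secreted signals of Sertoli cells 9 rose and 2 fell, with a median change of 1.05. Dhh, the Hedgehog ligand of Sertoli cells, read 11.76 and 11.82 at E12.0, against 7.25, 7.09, 7.32, 7.49 and 7.41 at E11.0. Amh, the hormone that makes the Müllerian ducts regress, read 10.58 and 10.16 at E12.0, against 7.06, 7.06, 7.13, 7.19 and 7.05 at E11.0. Both genes thus started at the dim end of the scale on every E11.0 array, and the changes were 4.48 ± 0.22 for Dhh and 3.27 ± 0.20 for Amh, which may understate them, since a signal that dim may be background. On every array both genes were higher at E11.6 than at E11.4. For Dhh the E11.4 arrays at 7.62 and 8.0 already lay above all E11.0 arrays, whereas those of Amh stayed at 7.0 to 7.19. Dhh read 10.01, 9.92 and 9.32 at E11.6, against 7.30, 7.62 and 8.0 at E11.4, and Amh read 8.68, 8.27 and 7.51 at E11.6, against 7.19, 7.0 and 7.11 at E11.4. The mean of Dhh had come to 9.75 at E11.6 and 11.02 at E11.8, and that of Amh to 8.15 and 9.07 at these stages.

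Fgf9, an FGF ligand that sustains Sox9 expression, began earlier. It read 8.89 and 9.04 at E12.0, against 7.40 to 7.56 at E11.0, a rise of 1.49 ± 0.13 (adjusted p = 1.68e-13), and it already passed the test at E11.4. The stage means of Fgf9 were 7.47, 7.77, 7.99, 8.79, 9.07 and 8.96, the highest being at E11.8. Ptgds, which makes prostaglandin D2, was among the late ones. Its E12.0 arrays read 9.49 and 9.32, against 7.32, 7.85, 7.37, 7.31 and 7.46 at E11.0, a rise of 1.94 ± 0.21, and the stage mean was still 7.92 at E11.6. Gdnf, a growth factor for spermatogonial stem cells, rose by 2.65 ± 0.17, and Pdgfa, a ligand received by interstitial cells, by 1.15. Bmp4 and Igf1, growth factors that are also made outside the supporting cells, were the members of this group that fell, Igf1 by 0.78 and Bmp4 by 1.25 on the log2 scale. The call for Bmp4 was lost without replicate 2 of E12.0 (-1.09, adjusted p = 0.0666).

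Of 16 other genes of Sertoli cells 14 rose and none fell, and the median change was 1.36. Over all genes tested 6% rose and 7.59% fell. The list was chosen with earlier results of these data known, so this count describes its members and is no test. Cst9, a gene of the cystatin family of protease inhibitors, read 12.68 and 12.53 at E12.0, against 7.74, 8.09, 7.89, 7.65 and 8.21 at E11.0, which made a change of 4.69 ± 0.31 (25.8-fold, adjusted p = 1.24e-18). Aard rose by 4.05 ± 0.29, with 13.15 and 13.53 at E12.0, against 8.98 to 9.80 at E11.0. Mmd2 rose by 3.44 ± 0.20, with 10.80 and 11.26 at E12.0, against 7.46 to 7.69 at E11.0. Both Aard and Mmd2 had passed the test by E11.4, at which stage Mmd2 stood at 8.40, 8.63 and 9.37. Tesc (2.73), Tmem184a (2.60) and the protease gene Adamts16 (2.39) followed from E11.6. The summed signal of the 16 genes was 28437 to 32034 on the E12.0 arrays and 4569.5 to 5772.2 on the E11.0 arrays. Aldh1a1, a retinaldehyde dehydrogenase, rose by 1.17 but lost its call without either E12.0 array (1.36 without replicate 1 and 0.99 without replicate 2). Lgr5, a receptor for R-spondins, rose by 0.57 and was not called without replicate 2 of E12.0 (0.25, adjusted p = 0.469).

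Genes of the cord matrix and basement membrane rose in 7 of 18 cases and fell in none, with a median of 0.31. Fbln2, which encodes the matrix glycoprotein fibulin 2, read 12.40 and 12.54 at E12.0, against 9.03, 9.59, 9.03, 8.86 and 8.97 at E11.0, a rise of 3.38 ± 0.21. Col9a2, a chain of type IX collagen, read 11.44 and 11.19 at E12.0, against 8.39 to 8.84 at E11.0, a rise of 2.64 ± 0.16. The groups lay far apart for both genes. Col18a1 (1.80), Col2a1 (1.29), Sparc (0.80) and the paired type IV collagen chains Col4a2 (0.74) and Col4a1 (0.57) rose less, and none of the measured laminin genes Lama1, Lamb1, Lamb2 and Lamc1 passed the test. The summed signal of the group was 54919 to 55819 at E12.0 and 27573 to 30483 at E11.0. Igfbp7 was also among the 12 largest rises (2.43 ± 0.37), although its E12.0 arrays differed by almost 1 log2 unit (11.39 and 12.38).

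**Figure D1:**
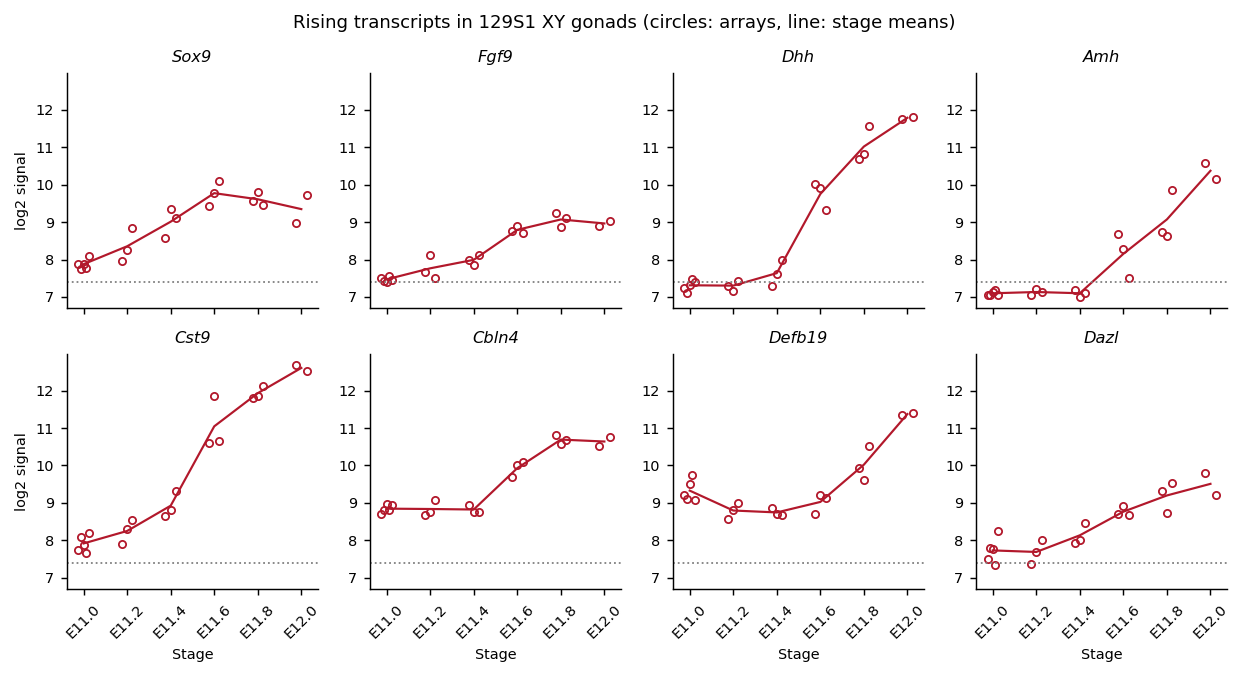
Log2 signal (vertical axis) of 8 genes that rose in 129S1 XY gonads, by stage (horizontal axis). Circles are single arrays, lines join the stage means and the dotted line is the array median of 7.40. Amh leaves the median after E11.4, and Dhh makes most of its rise after that stage. Sox9 has its highest mean of 9.77 at E11.6, and Defb19 dips to 8.75 at E11.4 before it reaches 11.37 at E12.0.

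Genes of FGF signalling rose in 4 of 10 cases and fell in none (median 0.40). The 10 hold feedback genes of the pathway and the receptor genes Fgfr1, Fgfr2 and Fgfrl1. The ETS factors Etv5 and Etv4 rose by 1.05 and 0.88, Il17rd, an inhibitor of the pathway, by 0.58, and the phosphatase gene Dusp4 by 0.88. Etv5 read 9.31 and 9.01 at E12.0, against 7.88 to 8.45 at E11.0, and its stage mean was 9.05 at E11.6, when that of Fgf9 was 8.79. Dusp4 lost its call without replicate 1 of E12.0 (0.67, adjusted p = 0.137). Of 7 Nodal pathway genes, the secreted Nodal antagonists Lefty2 and Lefty1 rose, by 1.58 ± 0.21 and 1.33 ± 0.19, while Nodal itself did not pass (0.23). Lefty2 read 10.15 and 9.38 at E12.0 and Lefty1 9.66 and 8.70, against E11.0 ranges of 8.03 to 8.36 and 7.61 to 8.10, so replicate 1 was the higher of the E12.0 arrays for both.

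Genes that report Wnt signalling showed no common direction, with 2 of 12 up and 1 down. Axin2, the feedback gene most widely used as a readout of the pathway, differed by -0.20 and was not called. Nkd2, an inhibitor within the pathway, rose by 0.76 ± 0.12. Wif1, a secreted Wnt inhibitor, rose by 0.50 and Tnfrsf19, a receptor gene that Wnt signalling induces, fell by 0.88 on the log2 scale, and both lost their calls without replicate 1 of E12.0 (Wif1 0.31, adjusted p = 0.458, and Tnfrsf19 -0.60, adjusted p = 0.35). For Wif1 the groups overlapped. In the small group of Hedgehog response genes, the receptor gene Ptch1 read 7.66 and 7.61 at E12.0, against 7.18 to 7.40 at E11.0. Its rise of 0.31 (adjusted p = 0.0399) was lost without either E12.0 array and without replicate 2, 3 or 5 of E11.0, the change then lying between 0.28 and 0.34. Smo was not called, and of 4 genes of Leydig cells and steroid synthesis Mc2r, the receptor of adrenocorticotropic hormone, fell by 0.71 on the log2 scale, whereas Cyp11a1 (-0.44) and Cyp17a1 (-0.17) did not pass.

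Of 16 genes of the female pathway, 5 fell and 1 rose, with a median of -0.26. Msx1, a homeobox gene, read 8.09 and 8.04 at E12.0, against 10.34, 10.18, 10.52, 10.29 and 10.70 at E11.0, a fall of 2.34 on the log2 scale (SE 0.21, adjusted p = 3.6e-13). Wnt4, the Wnt ligand required for ovarian development, read 9.34 and 9.07 at E12.0, against 10.68, 10.57, 10.30, 11.15 and 11.23 at E11.0. The E12.0 arrays lay below all E11.0 arrays for both genes. The mean of Msx1 was 9.30 at E11.6, against 10.28 at E11.4, whereas the mean of Wnt4 was still 10.49 at E11.6, with the arrays there at 10.89, 10.90 and 9.68. A different probe for Wnt4 changed by -1.48, close to the -1.59 ± 0.30 of the brighter probe. Drp2 fell by 2.09 and Nr2f1, a nuclear receptor also counted among interstitial genes, by 1.67. Rspo1 (-0.43 ± 0.20, adjusted p = 0.156) and Fst (-0.60 ± 0.25, adjusted p = 0.114) did not pass, although for both genes the 2 E12.0 arrays lay below the 5 E11.0 arrays. Lgals7, a galectin, was the member that rose (0.75), and it lost that call without either E12.0 array and without replicate 1, 3 or 4 of E11.0, the change then lying between 0.60 and 0.77.

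The largest falls outside the female pathway were in genes of varied function. Pisd-ps2, a pseudogene, read 8.37 and 8.54 at E12.0, against 10.87 to 11.14 at E11.0 (-2.55 ± 0.24). Kyat3, an aminotransferase, changed by -2.23, Mgarp, a mitochondrial protein gene that responds to hypoxia, by -2.20 and Trpc7, a cation channel, by -2.16. The guanylate-binding protein genes Gbp2b (-2.16) and Gbp2 (-2.10) fell together, but their sequences are closely related and a probe may not separate them, and another probe for Gbp2 changed by only -0.28. Lor, a structural gene of the epidermis, fell by 1.95 on the log2 scale yet stayed bright, at 10.41 and 10.68 on the E12.0 arrays. Gfra3, a receptor subunit for ligands of the GDNF family, read 8.01 and 7.80 at E12.0, against 9.69 to 9.99 at E11.0, and it was among the 7 falling probes that already passed at E11.4. Ecm1, which encodes extracellular matrix protein 1, fell by 1.79, with the dimmer probe for it at -0.55.

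**Figure D2:**
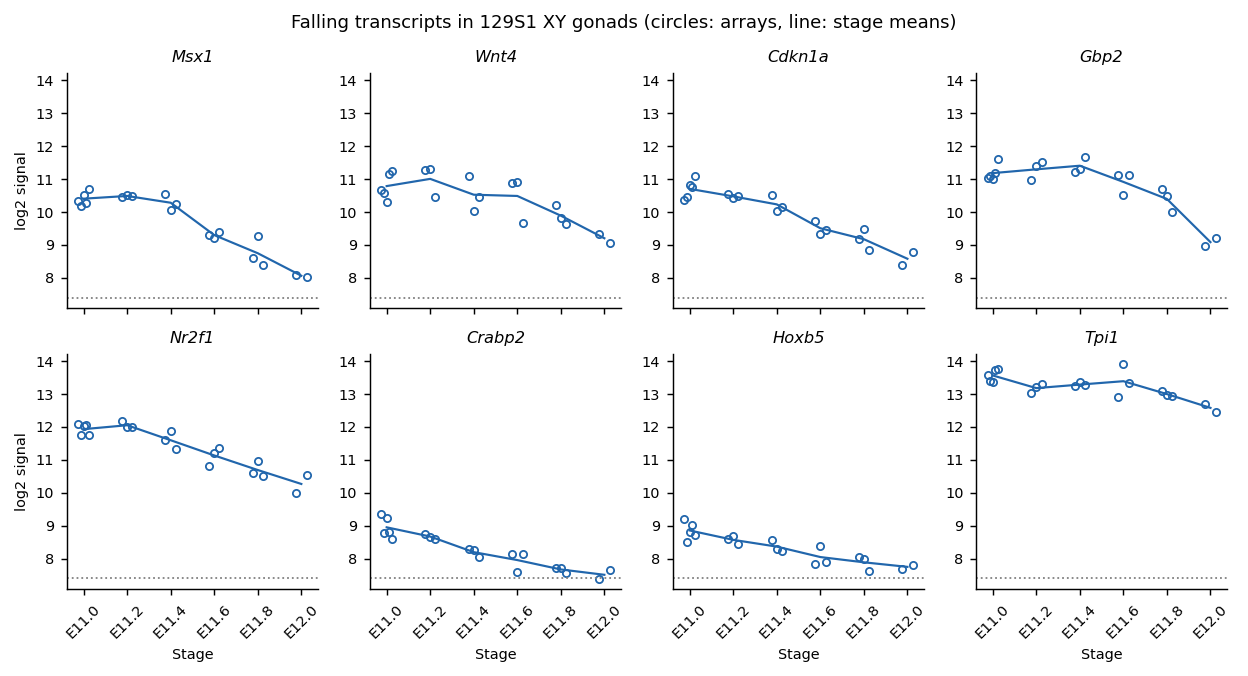
Log2 signal (vertical axis) of 8 genes that fell in 129S1 XY gonads, by stage (horizontal axis). Circles are single arrays, lines join the stage means and the dotted line is the array median of 7.40. Msx1 keeps its level to E11.4, Crabp2 and Hoxb5 decline at every stage, and a single E11.6 array of Tpi1 stands at 13.92 above the rest.

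Of 5 CDK inhibitor genes measured, Cdkn1a and Cdkn1c fell, and Cdkn1b (-0.22), Cdkn2c (0.24) and Cdkn2d (0.03) did not pass. Cdkn1a, which encodes the CDK inhibitor p21, read 8.38 and 8.78 at E12.0, against 10.38, 10.46, 10.83, 10.76 and 11.09 at E11.0, a change of -2.12 ± 0.23, and the other probes for it changed by -1.10 and -1.25. Cdkn1c, which encodes p57, read 13.43 and 13.26 at E12.0, against 14.37 to 14.81 at E11.0, a change of -1.33 ± 0.18. The third to fall of the 9 cyclin D and CDK inhibitor genes was Ccnd3 (-0.69), whose call was lost without replicate 2 of E12.0 (-0.41). The dimmer probes for Ccnd3 changed by -0.46 and -0.05 and were not called. Of 15 mitotic genes 6 rose and none fell, the median being 0.39, and the largest change among those that passed was 0.49 for Top2a, the topoisomerase that untangles sister chromatids. All 6 had E12.0 arrays above the E11.0 range, as did 511 of the 540 rising genes among all genes tested. The calls of all 6 were lost without replicate 1 of E12.0, and some were lost without replicate 2. Of 15 genes of DNA replication none passed, with a median of 0.21.

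Of 20 genes of hypoxia and glycolysis 8 fell and none rose, with a median of -0.32, and 5 fell without replicate 1 of E12.0. The 8 first passed the test at E11.8 or E12.0. The summed signal of the list was 70486 to 84532 at E11.0, 60830 to 65465 at E11.2 and 66981 to 73067 at E11.4. It was 62592 to 111830 at E11.6, 59164 to 63688 at E11.8 and 49629 to 51397 at E12.0. The E11.2 arrays thus lay below all E11.0 arrays, but those at E11.4 overlapped them, and the course of the sum was not tested. Tpi1, the triosephosphate isomerase gene, read 12.71 and 12.46 at E12.0, against 13.59, 13.40, 13.36, 13.74 and 13.75 at E11.0 (-0.98 ± 0.15, adjusted p = 6.15e-07). Ldha, which makes the A chain of lactate dehydrogenase, read 12.62 and 12.52 at E12.0, against 13.30 to 13.60 at E11.0 (-0.89 ± 0.16). For Aldoc (-0.95) and Gapdh (-0.49) the E12.0 arrays were again below all E11.0 arrays. Replicate 2 of E11.6 stood above all other 18 arrays for Tpi1 (13.92), Ldha (14.14) and Aldoc (8.86). Kdm3a, a histone demethylase that hypoxia induces and that acts on Sry in the gonad, changed by -0.92 and was not called without replicate 1 of E12.0 (-0.64, adjusted p = 0.235).

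Hox genes fell in 8 of 21 cases and rose in 2, with a median of -0.24. Those that fell were Hoxa4, Hoxa5, Hoxa7, Hoxb5, Hoxb6, Hoxb7, Hoxc6 and Hoxc9, all from the A, B and C clusters, and those that rose were Hoxd10 and Hoxd9. Hoxa7 changed by -1.42 ± 0.23, with 8.31 and 8.67 at E12.0, against 9.55 to 10.33 at E11.0, and Hoxb7 by -1.24 ± 0.19, with 7.91 and 8.22 at E12.0, against 9.04 to 9.83 at E11.0. Without replicate 1 of E12.0 or replicate 1 of E11.0 the number that fell was 5. Hoxd10 was uneven at the start, at 10.60 and 10.10 on the E12.0 arrays, against 9.43, 9.85, 9.69, 7.47 and 8.07 on the E11.0 arrays. All 14 arrays after E11.0 read 9.67 or more for Hoxd10, and its rise of 1.45 was 1.09 without replicate 4 and 1.24 without replicate 5 of E11.0, both still called. It was not called without replicate 1 of E12.0 (1.2, adjusted p = 0.176). Hoxd9 had its lowest values on the same pair of E11.0 arrays, at 10.06 and 10.14, and lost its rise of 0.44 without either E12.0 array or either of that pair, at 0.36 to 0.49.

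Of 9 genes of retinoic acid handling, 3 fell and 2 rose, with a median of -0.35. Crabp2, an intracellular retinoic acid carrier, read 7.38 and 7.64 at E12.0, against 9.35, 8.77, 9.23, 8.81 and 8.60 at E11.0 (-1.44 ± 0.18), and passed from E11.4 on. Aldh1a2, a main retinoic acid synthase of the mesonephros, fell by 0.81 and the receptor gene Rarb by 0.72 on the log2 scale. Rarb was not called without replicate 1 of E12.0 (-0.60, adjusted p = 0.0679). Cyp26b1, which degrades retinoic acid and keeps male germ cells out of meiosis, read 8.90 and 8.19 at E12.0, against 7.26 to 7.58 at E11.0, a rise of 1.15 ± 0.22. The arrays at E11.6 (8.06, 8.68 and 8.0) already lay above all those of E11.0, but the call at E12.0 was lost without replicate 1 (0.80, adjusted p = 0.0805). With Aldh1a1 lost as well, none of the 9 rose without replicate 1 of E12.0 and 1 rose without replicate 2.

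Germ cell genes rose in 6 of 19 cases, with a median of 0.47. Dazl, an RNA-binding protein gene that licenses germ cells for sexual differentiation, read 9.81 and 9.21 at E12.0, against 7.50, 7.78, 7.78, 7.35 and 8.24 at E11.0 (1.78 ± 0.26, adjusted p = 7.12e-07). Dppa3, a marker of primordial germ cells, read 11.78 and 10.61 at E12.0, against 9.12 to 9.95 at E11.0 (1.71 ± 0.37). Replicate 1 was the higher E12.0 array for Dazl, Dppa3, Zfp42 and Mov10l1, and without it only 1 gene of the list rose, with Dppa3 at 1.12 (adjusted p = 0.204). The summed signal of the 19 genes was 17406 to 28026 at E12.0 and 10980 to 16605 at E11.0. Pou5f1 (0.76) and Nanog (0.56), the pluripotency factors expressed in these cells, were not called.

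Markers of vessels and macrophages were lower at E12.0 in the few cases that passed. Of 19 endothelial genes 3 fell and none rose (median -0.21). Nos3, the endothelial nitric oxide synthase, read 7.49 and 7.96 at E12.0, against 8.28 to 8.82 at E11.0 (-0.85 ± 0.15). Notch4 (-0.54) lost its call without replicate 1 of E12.0 (-0.44) and Plvap (-0.52) without either E12.0 array or replicate 2 of E11.0 (-0.64 to -0.39), whereas Pecam1 (0.02) and Cdh5 (-0.46), the usual markers of these cells, did not pass. Of 13 macrophage and leukocyte genes 5 fell (median -0.40), but only 1 was called without either E12.0 array, 3 without replicate 3 of E11.0 and 2 without replicate 5 of E11.0. The lysozyme gene Lyz1 changed by -1.76 ± 0.38 and Lyz2 by -0.62, with the call for Lyz2 lost without any of 5 of the 7 arrays, though these sequences are close relatives that a probe may not separate. The summed macrophage signal was 2712.9 to 2831 at E12.0 and 3725.6 to 5362 at E11.0, and that of endothelium 13167 to 13681 at E12.0 and 15138 to 18465 at E11.0. Of 11 red cell genes, the embryonic globin gene Hbb-bh1 changed by -1.13 and the adult gene Hbb-b2 by 1.57 ± 0.28. The call for Hbb-bh1 was lost without either E12.0 array or replicate 3 of E11.0 (-1.22 to -1.02), and the red cell sums at E12.0 (93646 to 96879) lay inside the range of E11.0 (63907 to 129480).

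Interstitial genes were divided. Of 16 measured, 4 fell and 2 rose, with a median of -0.22. Pdgfra, the receptor for the Sertoli cell ligand encoded by Pdgfa, read 11.57 and 11.73 at E12.0, against 10.44 to 10.88 at E11.0, a rise of 0.99 ± 0.17. Dcn, the matrix proteoglycan decorin, rose by 0.89 and was not called without either E12.0 array, at 0.97 without replicate 1 and 0.82 without replicate 2. Nr2f1 read 9.99 and 10.55 at E12.0, against 11.75 to 12.09 at E11.0 (-1.67 ± 0.31), and Rgs5, a pericyte marker, read 8.11 and 8.01 at E12.0, against 9.25 to 9.84 at E11.0 (-1.47 ± 0.21). Ptn fell by 1.15 and Foxc1 by 1.08 on the log2 scale. Foxc1 lost its call without either E12.0 array, at -1.11 without replicate 1 and -1.05 without replicate 2, and Ptn without replicate 2 (-0.90, adjusted p = 0.133). The summed interstitial signal was 16595 to 16623 at E12.0, within the 15987 to 22344 of E11.0. Among 7 genes of mesonephric tubules, Pax8 (-0.26), the marker most used for that tissue, was not called, Gfra3 fell as above, and Lhx1 rose by 0.93 (0.55 without replicate 1 of E12.0, adjusted p = 0.268). The summed mesonephric signal was 1827.4 to 2063.2 at E12.0 and 2207.6 to 2439.8 at E11.0. This sum includes Gfra3, the only member that fell past the test, so it does not show that the other members were lower. The median change of the 7 genes was -0.13, and the part of mesonephric tissue in these results was not tested. Of 10 genes of the coelomic epithelium, which covers the gonad, 2 rose and 1 fell, beside 6% and 7.59% of all genes tested. Upk3b (-0.15) was not called. The rises were Lgr5, as above, and Cdh1 (0.49, and 0.40 without replicate 1 of E12.0, adjusted p = 0.214), so that 1 rose without either E12.0 array, and 2 fell without replicate 2.

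The pace of the day was uneven. Between neighbouring stages, no probe passed from E11.0 to E11.2 (0%, with 420 at an unadjusted p under 0.05 in limma) or from E11.2 to E11.4 (0%, with 253). In the interval from E11.4 to E11.6, 95 probes rose and 22 fell (117 in all, 0.911%), in that from E11.6 to E11.8 26 rose and 3 fell (29, 0.226%), and in that from E11.8 to E12.0 27 rose and 5 fell (32, 0.249%). These counts changed with single arrays. The 117 became 45 without replicate 1 of E11.4, 61 without replicate 2 of E11.4, 45 without replicate 2 of E11.6 and 360 without replicate 3 of E11.6. The 29 became 63, 7 and 101 without replicates 1, 2 and 3 of E11.6 and 1 without replicate 3 of E11.8, and the 32 became 13 and 3 without replicates 1 and 2 of E11.8 and 6 and 18 without replicates 1 and 2 of E12.0. Each stage set against E11.0 gave no probe at E11.2, 49 at E11.4 (0.381%), 682 at E11.6 (5.31%) and 1010 at E11.8 (7.86%). Of the 691 rising probes 24 first passed at E11.4, 215 at E11.6, 187 at E11.8 and 265 at E12.0, and of the 876 falling probes 7, 140, 243 and 486 did. The 49 ranged between 9, without replicate 3 of E11.4, and 74, without replicate 2 of E11.0, and was 24 without replicate 1 or 3 of E11.0, 19 without replicate 4 of E11.0 and 16 without replicate 2 of E11.4. The 682 became 321 without replicate 2 of E11.6 and the 1010 became 620 without replicate 3 of E11.8.

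The stages between E11.0 and E12.0 gave differences of means from arrays outside those of the whole day, although the estimate of the spread is shared. From E11.2 to E11.8, 416 probes rose (3.24%) and 186 fell (1.45%). Of the 691 probes that rose over the whole day, 655 (94.8%) moved the same way and 319 (46.2%) were called in that direction, with a median change of 0.44 there, against 0.63 over the day. Of the 876 that fell, 836 (95.4%) moved the same way and 164 (18.7%) were called, with a median of -0.27, against -0.53 over the day. None was called in the opposite direction. The calls among rising probes numbered 204 without replicate 3 of E11.8, and those among falling probes 84 and 97 without replicates 1 and 2 of E11.2 and 75 without replicate 3 of E11.8.

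**Figure D3:**
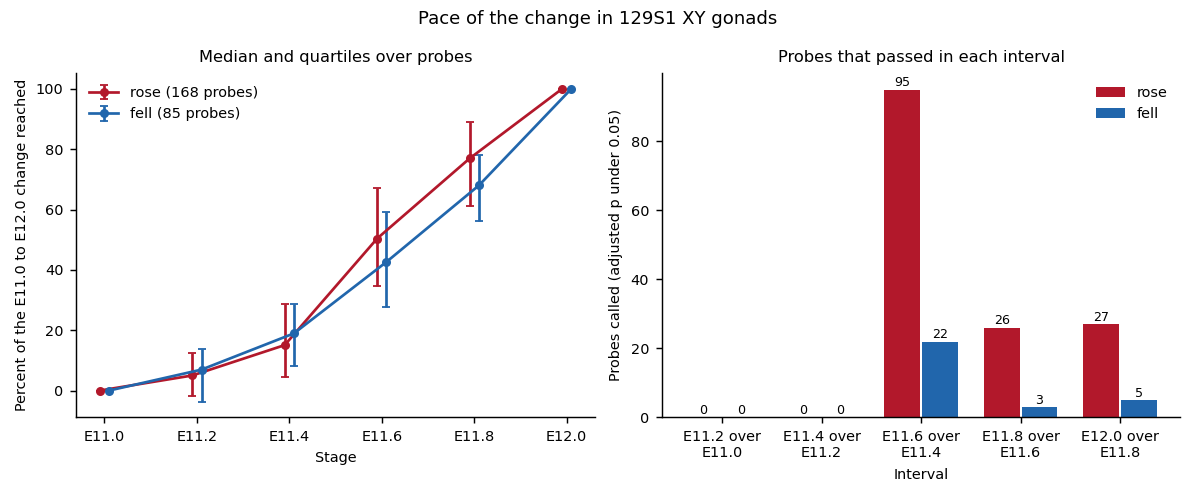
Left, percent of the change between E11.0 and E12.0 reached at each stage, as medians with quartiles over the 168 probes that rose and the 85 that fell at least 2-fold. Right, number of probes called in each interval, by direction (vertical axis), with 95 rises and 22 falls for E11.6 over E11.4 and none in the earlier intervals.

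For the 168 rising and 85 falling probes with a change of at least 2-fold, the share of the day's change that each stage had reached gave the shape. Rising probes had reached a median of 5.0% at E11.2, 15.1% at E11.4, 50.4% at E11.6 and 76.9% at E11.8, and falling probes 6.9%, 19%, 42.6% and 68.0%. The largest interval was E11.4 to E11.6 for 85 of the 168 rising probes (50.6%) and E11.8 to E12.0 for 52. Among falling probes it was E11.8 to E12.0 for 35 and E11.4 to E11.6 for 28. The probes were chosen by E12.0 against E11.0, so the first and last intervals share arrays with that choice. Their shares, and the steps placed in them, may therefore be too large. Tested directly over all probes, 27 rose and 5 fell from E11.8 to E12.0. A change was called a step where 1 interval held at least 60% of it and gradual where no interval held more than 40%. By this rule 22 rises were steps, 54 gradual and 92 between these classes, and 6 falls were steps, 33 gradual and 46 between. The nearest probes to the limit were Col18a1, with 60.2% on its dimmer probe, and Espn, with 59.99%, among rises, and Gbp2, with 62.6%, and Vav3, with 59.0%, among falls. The count of 22 was 69 without replicate 2 of E12.0, 40 without replicate 3 of E11.6, 36 without replicate 3 of E11.4 and 35 without replicate 3 of E11.8. The count of 6 was 14 without replicate 3 of E11.6, replicate 3 of E11.8 or replicate 2 of E12.0, and 3 without replicate 1 of E12.0.

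Of the 22 step rises 2 lay between E11.0 and E11.2, 11 between E11.4 and E11.6, 1 between E11.6 and E11.8 and 8 between E11.8 and E12.0. Cbln4, a secreted protein of the cerebellin family, read 9.69, 10.01 and 10.09 at E11.6, against 8.94, 8.76 and 8.77 at E11.4. It ended at 10.53 and 10.75 on the E12.0 arrays, against 8.70 to 8.96 at E11.0 (1.79 ± 0.18, adjusted p = 4.64e-12). Smtnl2 (1.59), Diras2 (1.56) and Dusp15 (1.51) had the same interval as their step. The E12.0 means of Cbln4 and these genes (10.64, 9.33, 9.05 and 9.25) were close to or below those at E11.8 (10.69, 9.30, 9.12 and 9.44). Hapln3, which encodes a protein that links hyaluronan to proteoglycans, made its step at the end, with stage means of 8.01, 8.18, 7.96, 8.10, 8.55 and 9.64. Its E12.0 arrays read 9.68 and 9.61, against 7.86, 8.20, 7.93, 7.99 and 8.07 at E11.0 (1.63 ± 0.14). Defb19, a beta-defensin gene, first declined to 8.75 at E11.4 and then averaged 11.37 at E12.0, against 9.08 to 9.74 at E11.0 (2.05 ± 0.22). Me1, the cytosolic malic enzyme, rose by 1.48 with 9.84 and 10.84 at E12.0, against 8.59 to 9.06 at E11.0. Cbln1, a relative of Cbln4, dipped too, with 12.35 and 12.41 at E12.0, against 10.93, 11.37, 11.52, 11.37 and 11.47 at E11.0, but a mean of only 10.84 at E11.4. Among falls, Taf7l made its step between E11.4 and E11.6, with E12.0 arrays at 7.27 and 7.12, against 7.84, 7.82, 8.77, 8.52 and 9.51 at E11.0. Its fall of 1.30 on the log2 scale was not called without either E12.0 array, at -1.37 without replicate 1 and -1.23 without replicate 2.

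The windows around the start sites of Cbln4, with its step between E11.4 and E11.6, and Hapln3, with its step between E11.8 and E12.0, are shown because each holds the core letters bound by SOX factors. They run for 250 bases before and 50 after the start on the minus strand (RefSeq, GRCm38.p6), at chr2:172043417-172043716 for Cbln4 and chr7:79130969-79131268 for Hapln3. Capitals mark AACAAT or its reverse complement ATTGTT.
Cbln4: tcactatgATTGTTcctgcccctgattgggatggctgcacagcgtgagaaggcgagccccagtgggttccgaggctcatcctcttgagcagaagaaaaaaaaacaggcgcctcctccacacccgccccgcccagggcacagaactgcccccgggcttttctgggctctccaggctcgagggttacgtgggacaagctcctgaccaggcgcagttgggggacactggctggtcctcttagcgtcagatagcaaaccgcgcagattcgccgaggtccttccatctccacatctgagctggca
Hapln3: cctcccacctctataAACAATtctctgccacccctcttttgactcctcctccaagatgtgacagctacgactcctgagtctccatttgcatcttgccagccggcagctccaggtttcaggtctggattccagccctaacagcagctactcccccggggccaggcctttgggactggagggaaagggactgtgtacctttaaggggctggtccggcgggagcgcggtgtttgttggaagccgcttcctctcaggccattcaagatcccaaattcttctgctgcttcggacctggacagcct
The match starts at -242 in Cbln4 and at -235 in Hapln3. Of the 21 genes with a step rise 15 had a window, and 2 of them (13.3%) held this motif on either strand. Of all 27025 genes with a window 12.2% held it in at least 1 window. CAAGGTCA, the core site of the factor encoded by Nr5a1, was in 1 (6.67%, against 1.76% of all these genes) and the GATA motif AGATAA in 1 (6.67%, against 12.7%). None of the 3 motifs is contained in another. Of 138 genes that rose at least 2-fold 100 had a window, and 5%, 1% and 10% of these held the SOX, core site and GATA letters. The shares describe letters only.

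There were 29 transient probes (0.226%), for which a stage between passed the test against E11.0 and against E12.0 in the same direction. Of these 21 were peaks and 8 troughs, and some, such as that of Sprr2d, were also called over the day. All 8 troughs and 17 of the peaks were at E11.6. Sprr2d, a small proline-rich protein gene of the female pathway list, had its peak at E11.4, with 11.17, 10.71 and 11.01 there and 7.87 and 8.31 at E12.0, against 8.68, 10.50, 8.85, 8.80 and 10.36 at E11.0. The E11.4 arrays lay above both ends, by 1.53 ± 0.37 over E11.0 (adjusted p = 0.0443) and 2.88 ± 0.47 over E12.0. Replicates 2 and 5 of E11.0 were near the E11.2 level of Sprr2d (10.10 to 10.66), and its fall over the day (-1.35 ± 0.43, adjusted p = 0.0274) was lost without either of these or either E12.0 array (-1.57 to -1.08). Cited4, a transcriptional co-activator, read 10.91, 10.18 and 10.15 at E11.6 and 9.30 and 9.37 at E12.0, against 8.33 to 9.31 at E11.0. Igfbp2, which binds insulin-like growth factors, had its highest arrays at E11.6 (10.32, 10.25 and 9.61), 1.03 ± 0.24 above E11.0. A dimmer probe for Acta2, smooth muscle actin, peaked at E11.4 by 1.18 ± 0.27 over E11.0 and 1.10 ± 0.34 over E12.0, and its brighter probe did not pass.

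Osr2, a zinc finger factor of mesenchyme, was the deepest trough. In the order of the stages it read 9.65, 9.34, 9.15, 10.42 and 9.57 at E11.0, 9.46, 9.71 and 8.75 at E11.2, 8.37, 8.11 and 8.12 at E11.4, 7.89, 8.11 and 8.46 at E11.6, 7.80, 8.10 and 9.14 at E11.8, and 10.04 and 10.12 at E12.0. The E11.6 arrays were lower by 1.47 than E11.0 (-1.47 ± 0.30, adjusted p = 0.00054) and by 1.93 than E12.0 (-1.93 ± 0.37). Prss35, a secreted serine protease-like gene, was -0.85 ± 0.18 from E11.0 and -1.28 ± 0.22 from E12.0 at E11.6, and Cldn11, a claudin of the later Sertoli cell barrier, -0.78 ± 0.18 and -1.07 ± 0.22. For Osr2, Prss35 and Cldn11 the 3 arrays at E11.6 all lay below all 7 arrays of E11.0 and E12.0. The number of transient probes was 140 without replicate 3 of E11.6 and 5 without replicate 1 of E12.0. It was 12 without replicate 2 of E11.6, 17 without replicate 2 of E12.0, and 16, 18 and 17 without replicates 1, 3 and 4 of E11.0.

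**Figure D4:**
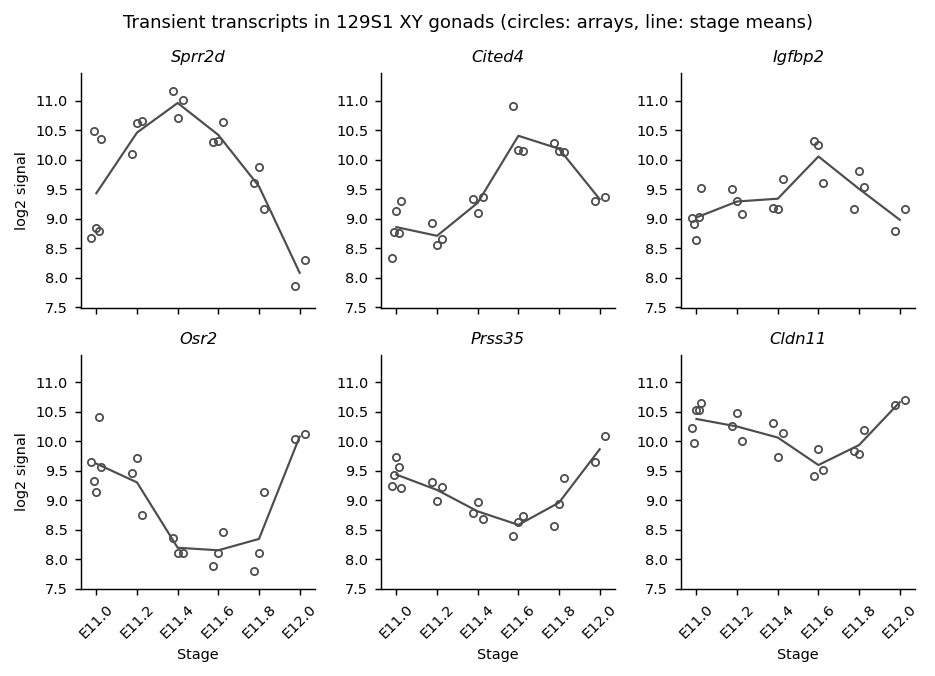
Log2 signal (vertical axis) of 6 transient genes in 129S1 XY gonads, by stage (horizontal axis). Circles are single arrays and lines join the stage means. Sprr2d, Cited4 and Igfbp2 peak at E11.4 or E11.6, and Osr2, Prss35 and Cldn11 have their lowest mean at E11.6.

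Set against XX gonads of the same strain, the change over the day in 129S1 XY gonads was more positive on 250 probes (1.95%) and more negative on 228 (1.77%). The XY side carried the difference for Cst9, Dhh and Mmd2, which changed by 4.69, 4.48 and 3.44 in XY and by 0.25, 0.04 and -0.16 in XX, the XX changes not passing the test. The differences of the changes were 4.43 ± 0.43 for Cst9, 4.44 ± 0.31 for Dhh and 3.60 ± 0.28 for Mmd2. Cbln1 moved in both sexes, by 1.05 in XY and -2.81 in XX, where it read 8.19 to 8.60 at E12.0 and 10.90 to 11.41 at E11.0 (difference 3.86 ± 0.35, adjusted p = 1.9e-12). For Irx3, a homeobox gene of the ovarian pathway, and Fst, which encodes the activin antagonist follistatin, the XX side carried it. They changed by 0.15 and -0.60 in XY, neither past the test, and by 3.37 and 2.58 in XX, with differences of -3.22 ± 0.33 and -3.18 ± 0.35. Sprr2d changed by -1.35 in XY and 3.36 in XX (difference -4.71 ± 0.60) and Drp2 by -2.09 in XY and 0.73, not past the test, in XX (difference -2.82 ± 0.38). Without replicate 1 of E12.0 in 129S1 XY, 104 probes had a more negative change.

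Set against XY gonads of B6, the change over the day was more positive in 129S1 on 34 probes (0.265%) and more negative on 41 (0.319%). At an unadjusted p under 0.05 in limma there were 1096. A difference of changes is less precise than either change, and 129S1 had 2 arrays at E12.0, so few calls do not show that the strains changed alike. In B6 alone, with 3 arrays at E11.0 and 3 at E12.0, 461 probes rose and 256 fell over the day. Amh changed by 3.27 in 129S1 and 1.49 in B6, with E12.0 arrays at 10.58 and 10.16 in 129S1 and 7.95 to 8.97 in B6 (difference 1.78 ± 0.28, adjusted p = 1.0e-04). Tnnc1, a troponin gene of slow and cardiac muscle, read 10.12 and 9.54 at E12.0 in 129S1 and 7.60 to 8.32 in B6 (difference 1.77 ± 0.21). At E11.0 both genes were dim in both strains, with Amh at 7.05 to 7.19 in 129S1 and 7.05 to 7.16 in B6. Vxn (1.52 ± 0.17) and Hapln3 (1.39 ± 0.19) rose in 129S1, and their changes in B6, 0.15 and 0.24, did not pass. Pisd-ps2 (-1.87 ± 0.34), Drp2 (-1.67 ± 0.38), Myl1 (-1.76 ± 0.39) and Sprr2d (-3.18 ± 0.60) were on the negative side, where Sprr2d read 7.87 and 8.31 at E12.0 in 129S1 and 9.27 to 9.81 in B6. Pisd-ps2 was already lower in B6 at E11.0, where it read 10.87 to 11.14 in 129S1 and 8.49 to 9.15 in B6. Without replicate 1 of E12.0 in 129S1 the calls for Sprr2d (-2.96, adjusted p = 0.0604), Drp2 (-1.39, adjusted p = 0.383) and Myl1 (-1.68, adjusted p = 0.179) were lost. Drp2 (-1.63 to -1.39) was also lost without replicate 1 of E11.0 or of E12.0 in B6, and Myl1 (-1.46) without replicate 1 of E11.0 in B6. The counts of 34 and 41 were 16 and 2 without replicate 1 of E12.0 in 129S1, and the 34 was 64 without replicate 2. They were 21 and 22 without replicate 1 of E11.0 in B6 and 16 and 19 without replicate 1 of E12.0 in B6, and the 41 was 27 without replicate 2 of E12.0 in B6.

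By E11.6 the strains differed at 9 probes more positive (0.07%) and 6 more negative (0.0467%) in 129S1, with 787 at an unadjusted p under 0.05 in limma. The same limit of precision holds here. In B6 alone 223 probes differed from E11.0 at E11.6, against 682 in 129S1, which had more arrays at E11.0. Dhh had changed by 2.44 in 129S1 and by 0.55, not past the test, in B6, with E11.6 arrays at 9.32 to 10.01 in 129S1 and 7.54 to 8.55 in B6 (difference 1.89 ± 0.29, adjusted p = 0.00027). At E12.0 Dhh read 11.76 and 11.82 in 129S1 and 9.68 to 11.15 in B6. Mmd2 (1.22), Cbln4 (1.03) and Dusp15 (0.96) were also further along in 129S1 at E11.6, where Cbln4 read 9.69 to 10.09 in 129S1 and 8.65 to 9.32 in B6. Of the 14 arrays in this comparison, leaving out 1 removed the call for Mmd2 in 6 cases (1.09 to 1.22), for Cbln4 in 9 (0.90 to 1.04) and for Dusp15 in 2 (0.78 to 0.84). Replicate 1 of E11.6 in B6 was among them for all 3 genes, replicate 2 of E11.6 in 129S1 for Mmd2 and Cbln4, and replicate 1 of E11.6 in 129S1 for Dusp15. On the negative side, Pglyrp1, a peptidoglycan recognition protein gene, stayed at 7.01 to 7.42 on all 19 arrays of 129S1 XY and read 9.42 to 10.03 at E11.6 in B6, with 7.77 to 8.13 there at E11.0 (difference -1.91 ± 0.33). Epb41l1, a gene of the band 4.1 family of membrane skeleton proteins, differed by -0.91 ± 0.17, with changes of -0.73 in 129S1 and 0.18, not past the test, in B6. Gng13 (-0.98) lost its call without any of 6 of the 14 arrays and Slc25a20 (-0.82) without any of 9. The 9 and 6 probes became 34 and 46 without replicate 3 of E11.6 in 129S1. They became 2 and 3 without replicate 1 of E11.6 in B6, and the 6 became 3, 10 and 12 without replicate 2 of E11.0, replicate 3 of E11.0 and replicate 3 of E11.6 in B6.

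**Figure D5:**
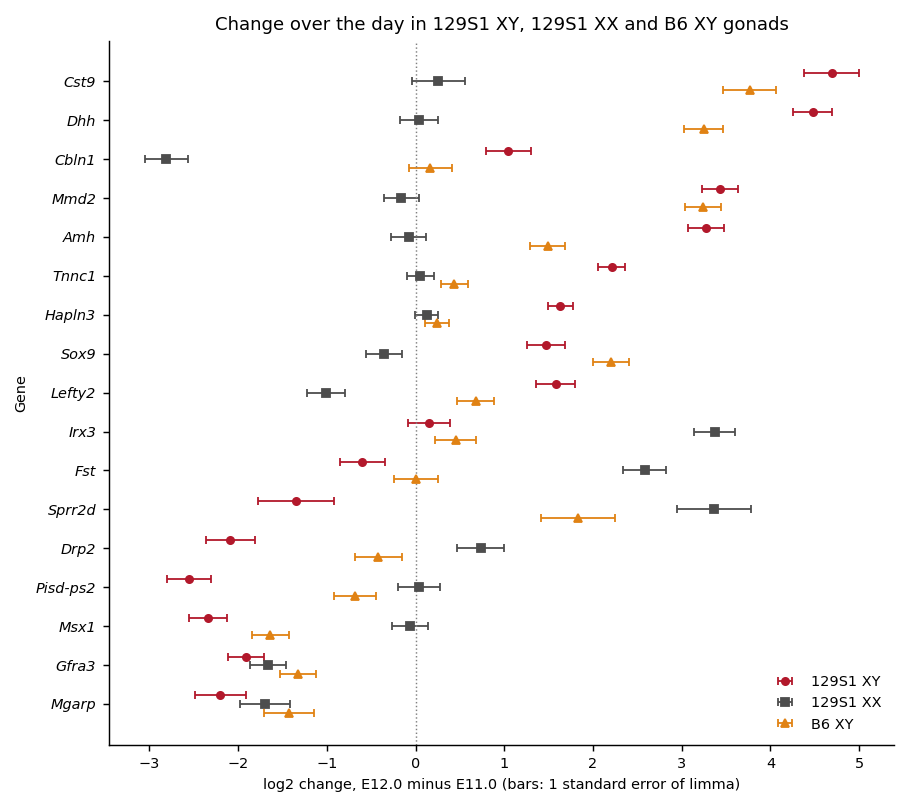
Log2 change of E12.0 minus E11.0 (horizontal axis) for 17 genes (vertical axis) in 129S1 XY gonads (red circles), 129S1 XX gonads (grey squares) and B6 XY gonads (orange triangles), with bars of 1 standard error of limma. Cst9 and Dhh change by over 4 in 129S1 XY and stay near 0 in 129S1 XX, while Gfra3 and Mgarp lie on the negative side in all 3 groups.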

How the data were processed

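Total RNA of individual gonad pairs was hybridised by the authors to Illumina MouseRef-8 v2.0 arrays, and the deposited values are log2 signals that the authors extracted in GenomeStudio and quantile-normalized with beadarray in R 2.12.0, per the submitters' notes and methods. Quantile normalization gives all arrays 1 distribution, so changes are relative to the other probes. A table of unnormalized signals (148 columns, whose names could not be tied to samples) was not used. Depth has no counterpart on arrays, and the number of arrays limits the precision. The brighter 50% of 25697 probes were kept (12848), ranked by the second brightest array of the best group. Group means over all 74 arrays were fitted in limma 3.58.1 (R 4.3.3), with empirical Bayes variances and Benjamini-Hochberg adjustment over the kept probes at 0.05. The fit was also run on simulated data with noise drawn independently for each probe and array. That run does not cover the variation that probes of the same array share. Tables and figures were made with pandas 2.3.3 and matplotlib 3.10.9 in Python 3.11.15. Each gene was read from its brightest kept probe over the 19 arrays. RefSeq names matched 23962 of 23978 probes with a symbol.

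Named genes were the 12 largest rises and falls with separate groups, up to 4 called members per list and direction, set regulators, the most transient genes, up to 3 step genes per interval and direction, and the 4 largest differences per comparison and direction. The members and gene lists were chosen with earlier results of these data known. Alternatives were other filters, arrays, weights, variance trends, centring, a linear stage trend, a replicate block, shape limits and leaving out each array. Sums of signal are sums of 2 raised to the log2 values. The chip of each array is not given in the sources used here, so a chip effect was not tested.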

Additional observations from a re-analysis of the deposited data

Results flagged for a closer look

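Among the 5 arrays at E11.0, a single array stood apart from the other 4 for 10 of 136 named genes, by the ratio of the gap to the range (critical value 0.71). Chance puts an array apart in about 1 of 20 groups, and the causes were not tested. Replicate 2 was high for Fbln2 (9.59), Plvap (11.39) and Ptgds (7.85). Replicate 5 was high for Tmem184a (9.66), Drp2 (10.78) and Vxn (7.45), and replicate 4 for Top2a (10.81). Replicate 3 was low for Lhx1 (7.35) and high for Srebf2 (9.46), and replicate 1 was low for Cbln1 (10.93).

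The change over the day differed between XY and XX gonads of 129S1, by the test of the difference itself in limma, for Cst9 (4.43), Dhh (4.44), Cbln1 (3.86) and Mmd2 (3.60) on the positive side and for Sprr2d (-4.71), Irx3 (-3.22), Fst (-3.18) and Drp2 (-2.82) on the negative side, as log2 differences of changes. The changes of Dhh, Cst9 and Mmd2 in XX were small and not called, those of Irx3 and Fst in XY were not called, and Cbln1 and Sprr2d were called in both sexes in opposite directions.

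Between 129S1 and B6 XY gonads the change over the day differed for Amh (1.78), Tnnc1 (1.77), Vxn (1.52) and Hapln3 (1.39) on the positive side and for Sprr2d (-3.18), Pisd-ps2 (-1.87), Myl1 (-1.76) and Drp2 (-1.67) on the negative side. The change to E11.6 differed for Dhh (1.89), Mmd2 (1.22), Cbln4 (1.03), Dusp15 (0.96), Pglyrp1 (-1.91), Gng13 (-0.98), Epb41l1 (-0.91) and Slc25a20 (-0.82). The calls for Pglyrp1, Epb41l1 and Dhh at E11.6 and for Amh, Tnnc1, Vxn, Hapln3 and Pisd-ps2 over the day were kept without any 1 of the arrays compared.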

How the results depend on the processing

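No change or difference of a named gene that passed the test turned its sign under an alternative run, and other probes were not examined for this. Balances of rises and falls did turn in several cases. Among them were the counts over the day, and those of the strains over the day, without replicate 1 of E12.0 in 129S1. The strain counts to E11.6 turned without replicate 3 of E11.6 in 129S1 (34 and 46) or with array weights. Wnt response genes turned (1 up, 2 down) with only the 19 arrays or the replicate block. Genes of early gonad formation turned without replicate 1 of E12.0 and those of the coelomic epithelium without replicate 2. Leaving out each array in turn gave 381 to 682 rises and 293 to 889 falls over the day, the lowest without replicate 1 of E12.0, and 0, 0, 45 to 360, 1 to 101 and 3 to 48 probes for the 5 intervals in order. The middle test gave 204 to 309 and 75 to 135 probes called the same way, steps 18 to 69 and 3 to 14, gradual changes 37 to 61 and 25 to 39, those between 86 to 98 and 35 to 53 (rises first in each), and the largest interval E11.4 to E11.6 75 to 91 rises and 19 to 29 falls. Transients numbered 5 to 140. The XY and XX changes differed at 181 to 272 and 104 to 237 probes, those of the strains at 16 to 64 and 2 to 52 over the day and at 2 to 34 and 3 to 46 to E11.6. Against E11.0 there were 0, 9 to 74, 321 to 973 and 620 to 1033 probes at E11.2, E11.4, E11.6 and E11.8, and over all lists 42 to 67 rises and 28 to 47 falls. Array quality weights gave 4, 56 and 10 probes for E11.2 over E11.0, E11.6 over E11.4 and E11.8 over E11.6, 15 transients, 15 and 23 strain differences to E11.6, and 4 and 89 probes at E11.2 and E11.4 against E11.0. With only the 19 arrays in the fit the later intervals held 41, 6 and 3 probes, transients were 13, and E11.4 and E11.6 differed from E11.0 at 17 and 406. With a step set at 50%, 65 rises and 21 falls were steps and 49 rises lay between. With a change of at least log2 2, rises were 1 step, 10 gradual and 17 between, and falls 1, 3 and 5. With group medians 12 falls were steps. The comparisons with E11.0 and the largest interval had their alternatives chosen after seeing the data.

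The labels give the replicate numbers no meaning, and they were not taken to pair the arrays: deviations of same-numbered arrays correlated between -0.66 and 0.69 over 40 pairs, above 0.1 in 23. The numbers differed in this: among replicate 1 arrays all 15 pairs were above 0 and 13 above 0.1, against 6 of 15 above 0.1 for replicate 2 and 4 of 10 for replicate 3. All 6 replicate 1 arrays also lay on 1 side of the main axis of within-stage variance (34.65%). What they share was not tested. With the number as a block, 729 probes rose and 820 fell, and 6 of the named genes lost their call over the day. Of 119 named genes called over the day, 49 lost the call under at least 1 setting, 39 of them without replicate 1 of E12.0 and 28 without replicate 2. Of 17 not called, Cited4, Fst and Rspo1 passed under at least 1 setting.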

Other observations

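Of 13 genes of amino acid stress, 3 rose and 1 fell, with a median of -0.10. Slc7a5, a transporter of large neutral amino acids, read 10.80 and 10.84 at E12.0, against 9.58, 10.29, 9.75, 9.97 and 9.87 at E11.0 (0.93 ± 0.16, adjusted p = 2.43e-05 in limma). Phgdh and Psat1, consecutive enzymes of serine synthesis, rose by 0.88 and 0.84, Phgdh with 9.60 and 9.97 at E12.0, against 8.70 to 9.23 at E11.0. The groups did not overlap for any of the 3 genes. Phgdh lost its call without replicate 2 of E12.0 (0.70, adjusted p = 0.059) and Psat1 without either E12.0 array (0.91 without replicate 1 and 0.76 without replicate 2). Atf4 (0.06) and Asns (-0.10) were not called. Ddit3 changed by -0.47, a call lost without either E12.0 array or replicate 2 of E11.0.

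Of 14 genes of cholesterol synthesis 2 fell, Srebf2, its main transcriptional regulator, by 0.63 and Cyp51 by 0.45 on the log2 scale, neither being called without replicate 1 of E12.0 (-0.49 for Srebf2 and -0.50 for Cyp51), and Cyp51 not without any of 6 of the 7 arrays. Of 12 immediate early and heat shock genes, which respond to handling of tissue, only Jund changed (-0.66, and -0.61 with adjusted p = 0.0634 without replicate 2 of E12.0), and the median was 0.01. Of 16 genes of early gonad formation 1 rose and 2 fell, with a median of -0.25. Over all genes tested 6% rose and 7.59% fell. The counts of this list and those of cholesterol synthesis and immediate early genes are thus not read as changes of the lists. Lmo4, a LIM-only transcriptional cofactor, rose by 0.66 (0.51 without replicate 2 of E12.0, adjusted p = 0.195), while Kdm3a fell as given above and Podxl, a sialomucin of podocytes and endothelium, changed by -0.72 (-0.66 without replicate 1 of E12.0, adjusted p = 0.126). The Y-linked gene Eif2s3y rose by 0.72, with 9.49 and 9.94 at E12.0, against 8.70 to 9.26 at E11.0, and was not called without replicate 2 of E12.0 (0.50, adjusted p = 0.266).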
